A study of Mus musculus with 10 samples.

Results

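Of 10 libraries of mouse back skin, 3 had Pdk4 at or above 70 CPM (counts per gene scaled to the same total in every library), and these 3 were set against the other 7. Pdk4, pyruvate dehydrogenase kinase 4, switches off the pyruvate dehydrogenase complex and so holds back the burning of glucose carbon. The 3 were libraries 3, 4 and 5 of the SE group, in which newborn mice carried Staphylococcus epidermidis Tü3298. The other 7 were SE libraries 1 and 2 and all 5 libraries of the SA group, which carried Staphylococcus aureus SF8300. All mice were C57BL/6 under specific pathogen free housing. A volume of 100 µl of bacteria was put on the skin on alternate days between day 3 and day 19 of life, and an 8 mm punch was cut at day 21, so every library came from colonised skin and no uncolonised control was among them. Nothing in the labels ties a library to a mouse of its own, so the spread between libraries may be partly technical.

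Pdk4 lay at 136, 144 and 114 CPM in SE 3, SE 4 and SE 5. In SE 1 and SE 2 it lay at 21.96 and 29.9 CPM, and over the SA libraries it ran from 8.67 to 17.1 CPM. The lowest library inside the threshold was SE 5 and the highest outside it was SE 2, with no library between 29.9 and 114 CPM. Because the libraries were chosen by a measured value, their Pdk4 level, every gene of this contrast is given as a description, with no test. A gene was counted as higher or lower when its mean log2(CPM + 0.5) differed by at least 1, which is 2-fold, and no library of the 3 overlapped the libraries compared. The added 0.5 CPM makes the difference of a low gene look smaller than it is. Each difference below is on that log2 scale, the 3 minus the others.

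Pdk4 is known as a gene of fasting, switched on by glucocorticoids, by FOXO factors when insulin is low and by PPAR receptors when fatty acids are plentiful. Hair follicles of young mice pass through growth, regression and rest, and during growth the matrix at the base of the follicle divides and feeds the inner root sheath, a stiff sleeve that moulds the hair, and the hair shaft itself. Krt27, the second gene by which this state is marked, is a keratin of the inner root sheath. The glucose and lipid genes and the follicle genes are therefore given in turn.

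Gene reads per library ran from 21140654 to 25417851, with the 3 inside that range. The general skin markers were present at high levels in all 10 libraries. In the 3, Krt14 of the basal epidermis lay at 1963, 2328 and 2487 CPM against 1349.7 to 1811 CPM (median 1466) in the other 7. Krt10 of the upper epidermis lay at 3229.6, 3746 and 2568 CPM against 3018 to 4371 CPM (median 3619.6), and the collagen gene Col1a1 at 14942, 10090.3 and 12980.3 CPM against 10956 to 17425 CPM (median 16782). Reads outside annotated genes took 5.05% to 6.59% of the reads in the 3 and 3.06% to 5.06% in the other 7, and the part of this share in the results was not tested. Library SE 3 was the only one of the 3 with more Ddx3y, a Y-linked gene, than Xist, as were SA 1 and SA 3 among the 7.

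Against the other 7 libraries, 217 of 16909 tested genes were counted as higher in SE 3, 4 and 5 (1.28%) and 131 as lower (0.775%). Against SE 1 and SE 2 alone, where the colonising species is the same, 368 were higher (2.18%) and 249 lower (1.47%). These comparisons share the 3 libraries and the 2 SE libraries. Of the 217 genes, 205 were also counted against SE 1 and 2, which is 94.5% of the 217 and 55.7% of the 368. Of the 131 genes, 111 were, which is 84.7% of the 131 and 44.6% of the 249. The remaining 12 and 20 lay on the same side with no overlap but by less than 2-fold. Side and lack of overlap follow from the counting rule, because SE 1 and 2 are among the 7. Only the size of the difference was open, so the 94.5% and 84.7% are no independent check. The root mean square log2 distance between libraries had a median of 0.303 within the 3, 0.339 within the 7, 0.487 from the 3 to SA libraries and 0.541 from the 3 to SE 1 and 2. So the 3 lay no closer to the other skin of their own species than to SA skin.

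**Figure D1:**
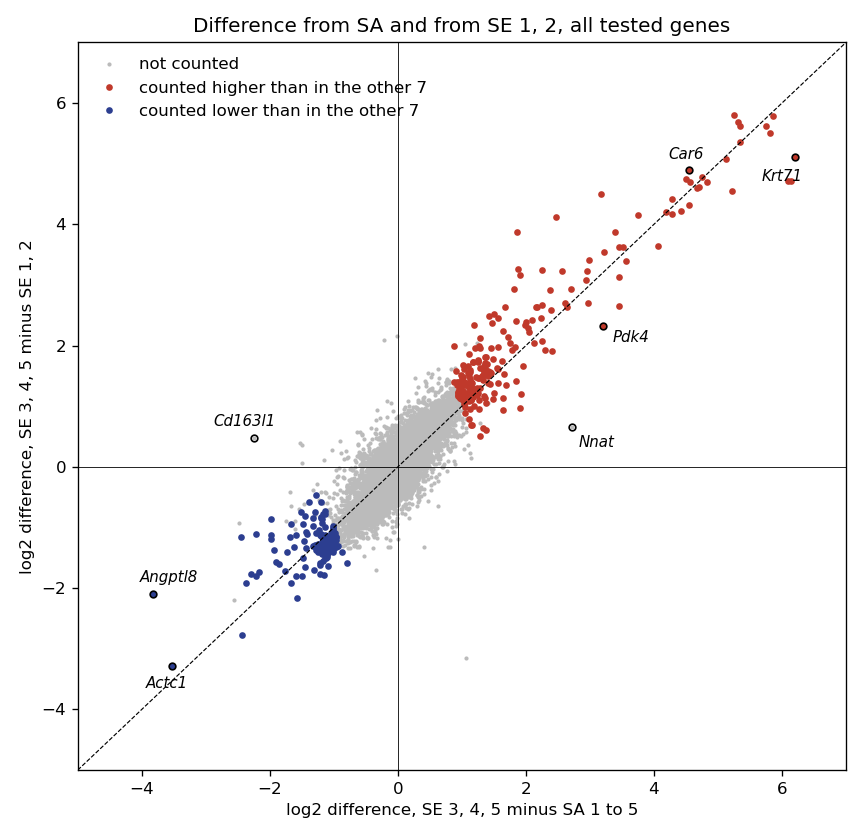
Each point is 1 of the 16909 tested genes, placed by its difference in mean log2(CPM + 0.5) between SE 3, 4, 5 and the SA libraries (x axis) and between SE 3, 4, 5 and SE 1, 2 (y axis), with the dashed line at equal differences. Both axes share the 3 libraries. The 217 genes counted as higher and the 131 counted as lower than in the other 7 lie on the same side of 0 on both axes, which the counting rule fixes. Nnat and Cd163l1 lie farther from 0 on the SA axis than on the SE axis.

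The keratins and trichohyalin of the inner root sheath were far higher in SE 3, 4 and 5 than in all other libraries. Of 12 listed genes, 11 were counted as higher and none as lower, with a list median of 4.73 against -0.01 over all tested genes, and the same 11 were counted against SE 1 and 2, with a median of 4.58. Krt71, a keratin of all inner root sheath layers, lay at 198, 102 and 674 CPM in SE 3, SE 4 and SE 5 and from 0.566 to 20.1 CPM (median 1.85) in the other 7. The highest library outside the 3 was SE 2, which lay 2.32 below SE 4 on the log2 scale, and the difference of the means was 5.89. Krt27 lay at 115, 52.7 and 405 CPM against 0.525 to 8.96 CPM (median 2.30), a difference of 5.71, or 4.72 against SE 1 and 2. Krt25, another type I keratin of the sheath, lay at 79.5, 41.1 and 269.8 CPM against 0.0404 to 11.7 CPM (median 0.604). Trichohyalin, Tchh, which binds the keratin filaments together, lay at 330.4, 156 and 1204 CPM against 8.33 to 25.2 CPM (median 12.2). In each of these 4 genes SE 5 was highest, SE 3 next and SE 4 lowest of the 3, and no library of the 7 reached SE 4. Gata3, a transcription factor of the sheath that the epidermis and T cells also make, was the member not counted, at 99.1, 126 and 94.9 CPM against 81.2 to 140.2 CPM (median 106).

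The promoters of Krt25, Krt27 and Krt71 are shown with that of Pdk4 because the 3 sheath keratins had the same order across SE 3, 4 and 5 while Pdk4 did not. Krt25 and Krt27 lie in the same keratin cluster on chromosome 11 and Krt71 on chromosome 15. The sequences are from RefSeq, build GRCm38.p6, 250 bases before to 50 after the annotated start, and all 4 are read on the minus strand. Positions are chr6:5496229-5496528 for Pdk4, chr11:99322902-99323201 for Krt25, chr11:99351069-99351368 for Krt27 and chr15:101743048-101743347 for Krt71. Capitals mark matches to 6 motifs searched on both strands, which were TATAAA (the TATA box), AGAACA (the core letters of a glucocorticoid receptor site), GTAAACA (a forkhead and FOXO site), AGGTCA (a nuclear receptor core), CACGTG (an E-box) and CTTTGAT (a Lef and Tcf site). No capitals overlap between motifs.
Krt25: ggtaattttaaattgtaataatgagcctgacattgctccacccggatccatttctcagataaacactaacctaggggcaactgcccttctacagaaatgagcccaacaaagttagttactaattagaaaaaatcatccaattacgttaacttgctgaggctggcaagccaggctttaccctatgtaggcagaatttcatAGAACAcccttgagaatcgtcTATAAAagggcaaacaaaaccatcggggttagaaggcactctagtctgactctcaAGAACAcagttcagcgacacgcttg
Krt27: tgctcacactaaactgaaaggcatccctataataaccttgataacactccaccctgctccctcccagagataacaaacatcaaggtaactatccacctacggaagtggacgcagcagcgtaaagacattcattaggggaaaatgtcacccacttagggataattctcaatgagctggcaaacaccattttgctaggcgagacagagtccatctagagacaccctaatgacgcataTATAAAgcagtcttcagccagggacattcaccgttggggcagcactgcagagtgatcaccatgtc
Krt71: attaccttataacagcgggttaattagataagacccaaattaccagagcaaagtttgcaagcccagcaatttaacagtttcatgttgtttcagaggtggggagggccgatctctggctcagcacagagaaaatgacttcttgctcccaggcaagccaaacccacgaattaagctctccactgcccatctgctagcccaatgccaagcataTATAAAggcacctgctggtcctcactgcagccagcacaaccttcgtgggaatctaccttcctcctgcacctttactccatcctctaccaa
Pdk4: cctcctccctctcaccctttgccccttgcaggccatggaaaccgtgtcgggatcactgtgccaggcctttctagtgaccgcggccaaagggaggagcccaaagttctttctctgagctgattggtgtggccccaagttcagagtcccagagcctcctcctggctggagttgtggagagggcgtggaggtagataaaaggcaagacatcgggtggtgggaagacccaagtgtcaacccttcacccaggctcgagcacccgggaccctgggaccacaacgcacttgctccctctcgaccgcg

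TATAAA began 30 bases before the annotated start in Krt25, 15 before it in Krt27 and 40 before it in Krt71, and AGAACA stood on both sides of the start in Krt25. Of the 27 counted hair sheath, shaft and keratin-associated genes 21 had a promoter in the RefSeq set, and of these 16 held TATAAA (76.2%), against 13.6% of 32851 promoters of the same length. AGAACA was in 6 of the 21 (28.6%) against 19.0% of all promoters, and AGGTCA in 2 (9.52%) against 16.3%. The forkhead motif, the E-box and the Lef and Tcf motif were in 0 of the 21, against 3.65%, 7.15% and 3.73% of all. The 21 come from related gene families and were chosen by their counts in these data. Hair genes that were not counted were not set beside them. These shares are thus a description, and any link to high Pdk4 was not tested. The Pdk4 window held none of the 6 motifs, which says only that these letters are not in these 300 bases.

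Hair shaft genes differed in the same libraries. Of 15 shaft keratins with counts, 9 passed the filter on low counts, and 8 of the 9 were counted as higher, with a median of 4.32 (4.22 against SE 1 and 2). The filter asked for a minimum level in at least 5 libraries, the size of a labelled group. A gene low in most of the 7 could thus pass with the help of its level in the 3. That count is therefore a description and supports nothing further. Krt84 lay at 29.2, 26.4 and 125 CPM against 0.0403 to 1.01 CPM (median 0.647) in the other 7. Krt35, an early keratin of the hair cortex, lay at 7.17, 5.68 and 25.96 CPM against 0.161 to 2.15 CPM (median 1.49), a difference of 2.76. Krt32, a cuticle keratin chosen after its values were seen as the member not counted, lay at 6.50, 6.59 and 10.1 CPM against 4.70 to 8.67 CPM (median 5.50). Keratin-associated proteins fill the space between shaft filaments, and 8 of 57 passed the filter, all 8 counted as higher with a median of 5.05. The same limit of the filter holds for this count and this median. Krtap8-1 lay at 42.5, 20.1 and 163 CPM against 0.175 to 1.41 CPM (median 0.282), so it was near 0 in several libraries of the 7 and present in all 3. Reads of these near-identical genes can be lost or shared between copies, so the level of any one copy is uncertain.

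**Figure D2:**
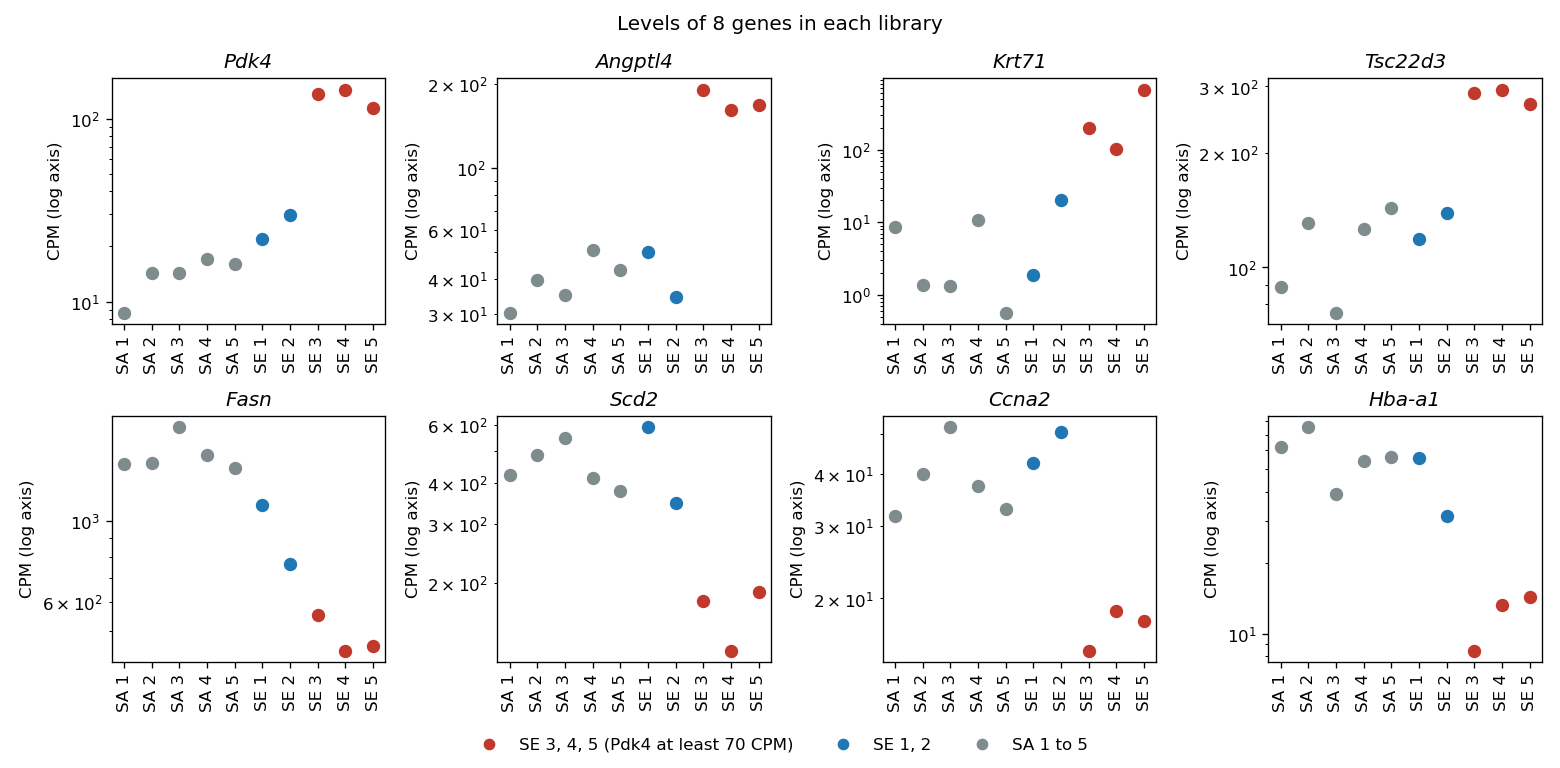
Each panel shows 1 gene, with the library on the x axis and its level in CPM on a log y axis, 1 point per library. In Pdk4, Angptl4, Krt71 and Tsc22d3 the 3 red points lie above all others, and in Fasn, Scd2, Ccna2 and Hba-a1 they lie below all others. The 3 lie within 1.26-fold of each other in Pdk4 and spread 6.60-fold in Krt71.

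In the hair genes SE 3, 4 and 5 also differed widely among themselves. The highest of the 3 libraries was 6.19 times the lowest in the median inner root sheath gene, 4.92 times in the median shaft keratin and 7.15 times in the median keratin-associated gene. Over all tested genes that ratio had a median of 1.19. It was 1.15 in the fasting list, 1.23 in the glucocorticoid list and 1.18 in the proliferation list. Wide spread was not confined to hair genes. The ratio was 2.42 in the list of companion layer and stress keratins, 2.06 in neutrophils and 1.71 in macrophages. It was 137 in the Y-linked and Xist list, and 1.67 over all genes counted as higher than in the 7. SE 5, the lowest of the 3 in Pdk4, was the highest in hair genes, so the levels of Pdk4 and of the hair genes did not follow the same order. Without SE 5 the medians of the sheath, shaft and keratin-associated lists were 4.00, 3.69 and 4.23. Without SE 4, the library with the lowest hair genes, they were 5.34, 4.91 and 5.70.

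**Figure D3:**
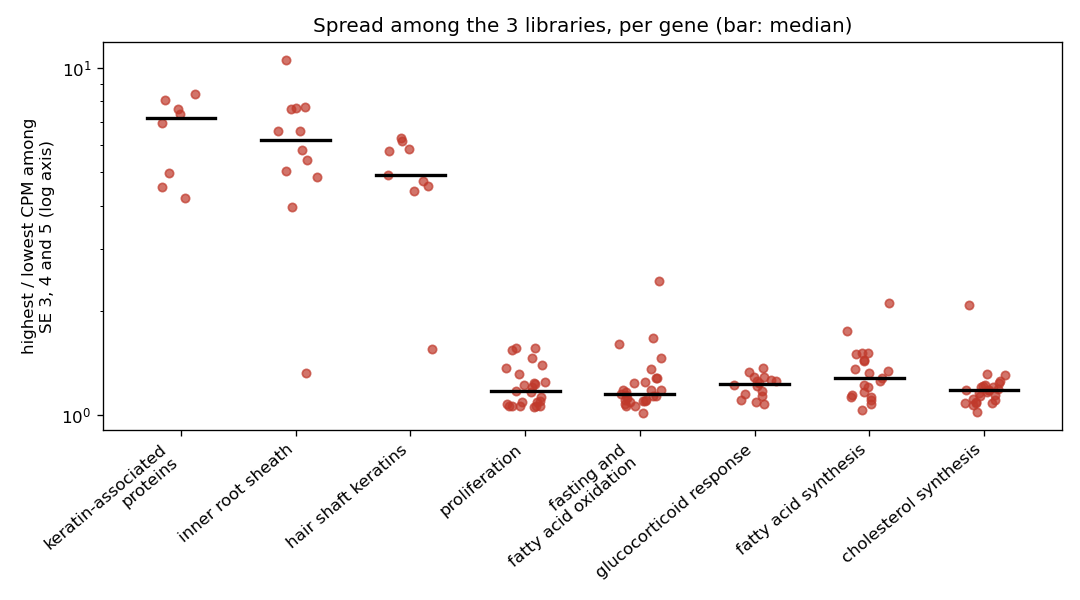
Each point is 1 tested gene of a list (x axis), and the y axis, a log axis, gives the highest of its CPM values in SE 3, 4 and 5 over the lowest, with a bar at the list median. The hair lists have medians of 4.92 to 7.15, and the other lists shown have medians of 1.15 to 1.28, against 1.19 over all genes. Some lists not shown have wider spread, such as companion layer and stress keratins at 2.42.

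Keratins of the companion layer, which lies between the inner and outer sheaths, and of stressed epidermis were mixed. Of 5 listed genes, 3 were counted as higher and 1 as lower. Krt6a lay at 378, 494 and 604 CPM against 80.1 to 174 CPM (median 113), and Krt16, its partner, at 82.2, 92.7 and 221 CPM against 9.83 to 40.9 CPM (median 20.2). Krt75, the companion layer keratin, lay at 61.3, 65.7 and 159 CPM against 21.01 to 42.2 CPM (median 30.1). Krt6b stood on the other side, at 0.623, 1.42 and 1.51 CPM against 2.05 to 23.3 CPM (median 5.46), a difference of -2.08. Krt6a and Krt6b are near-identical neighbours, so part of their reads may be assigned to either, and both also overlap annotation on the opposite strand.

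Among 30 genes that signal or control follicle growth, 6 were counted as higher and 2 as lower, with a median of 0.09. Those higher were Dsg4, Corin, Hoxc13, Fgf5, Msx2 and Dlx3, and those lower were Wif1 and Shh. Dsg4, a cell adhesion protein of the forming shaft, lay at 20.1, 18.95 and 41.9 CPM against 1.23 to 2.60 CPM (median 1.74). Corin, a protease of the dermal papilla, lay at 20.1, 15.02 and 21.98 CPM against 1.63 to 3.88 CPM (median 2.62), and Hoxc13, a transcription factor that drives shaft keratins, at 28.5, 33.3 and 47.98 CPM against 8.97 to 15.5 CPM (median 12.1). Wif1, a secreted Wnt inhibitor, lay at 8.06, 9.84 and 7.36 CPM against 18.1 to 32.2 CPM (median 26.1). Shh, the matrix signal of growing follicles, lay at 0.0890, 0.275 and 0.503 CPM against 0.725 to 2.42 CPM (median 1.08). Reads of Shh were few, above all in the 3, as 1 CPM stands for at least 21.3 reads. Both groups of genes lay outside the range of the 7, on opposite sides. Lef1, the Wnt effector of the matrix, differed by 0.09, chosen after its value was seen. No gene of the follicle stem cell list (12 tested, median 0.34) was counted against the 7, and 2 were counted as higher against SE 1 and 2. Its largest difference was that of Lgr5, 0.99. Of the 15 melanocyte genes none was counted against the 7 and 2 were counted as lower against SE 1 and 2, with medians of -0.27 and -0.49. Tyrp1, a pigment enzyme, lay at 14.96, 22.5 and 21.9 CPM against 19.4 to 38.9 CPM (median 22.4).

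Genes of dividing cells were lower in the same libraries. All 25 proliferation genes had a negative difference, with a median of -1.01 (-1.12 against SE 1 and 2), and 13 were counted as lower, or 19 against SE 1 and 2. Ccna2, cyclin A2, lay at 14.96, 18.7 and 17.6 CPM in the 3 and from 31.6 to 51.9 CPM (median 39.99) in the other 7, a difference of -1.22. Cdk1, the kinase of mitotic entry, lay at 14.6, 17.2 and 16.9 CPM against 30.99 to 52.5 CPM (median 35.9). Bub1, a spindle checkpoint kinase, differed by -1.30. Top2a, which untangles replicated DNA, lay at 62.9, 76.8 and 63.9 CPM against 105 to 167 CPM (median 129.6) and, at -0.95, was just short of the size counted although the groups did not overlap. In whole skin, fewer dividing cells and less RNA per dividing cell cannot be told apart, and the same holds for every cell type below.

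Among the fuel genes, 27 of fasting and fatty acid oxidation were tested, of which 24 had a positive difference, 4 were counted as higher and none as lower, with a median of 0.27. Angptl4, Fabp3 and Txnip were among the 4. Angptl4, a fasting-induced inhibitor of lipoprotein lipase, lay at 191, 161 and 169 CPM in SE 3, SE 4 and SE 5 against 30.3 to 51.01 CPM (median 39.9) in the other 7. It differed by 2.10, and by 2.04 against SE 1 and 2, whose values were 50.2 and 34.6 CPM. Txnip, which limits glucose uptake, lay at 1114, 1087 and 993 CPM against 346 to 481 CPM (median 408), with 19.4% of its exon bases overlapped on the opposite strand. Cpt1a, the gate of fatty acids into mitochondria, lay at 162, 147 and 158 CPM against 72.6 to 92.1 CPM (median 86.7). Its difference of 0.92 was just under the size counted. Cpt1a was chosen after its values were seen.

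Glucocorticoid response genes also lay mostly higher. Of 16, 14 had a positive difference, 4 were counted as higher and none as lower, with a median of 0.70 against both the 7 and SE 1 and 2. Tsc22d3, also called Gilz, which mutes inflammatory signalling, lay at 288, 294 and 270.3 CPM against 75.9 to 144 CPM (median 127), a difference of 1.30. Sgk1, a kinase of ion transport, lay at 216, 251 and 253 CPM against 100.3 to 131 CPM (median 117). Zbtb16 lay at 51.02, 58.7 and 62.1 CPM against 21.7 to 39.8 CPM (median 26.9) but differed from SE 1 and 2 by only 0.79. Per1 belongs to this list and to the circadian clock and lay at 155, 175 and 173 CPM against 30.1 to 110.0 CPM (median 62.9), the widest range among the 7 of these genes. Fkbp5, a chaperone that feeds back on the glucocorticoid receptor, lay at 61.8, 70.1 and 55.8 CPM against 27.2 to 44.9 CPM (median 32.4), above all 7 but short of 2-fold at 0.83. Mt2, a metallothionein that glucocorticoids also raise, was on the other side at -0.54, with overlap, and was chosen after its value was seen.

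Of 19 clock genes, 2 were counted as higher, Per1 and Per2, with a median of 0.15. No other clock gene was counted against the 7. Against SE 1 and 2, 2 clock genes were counted as higher, and Per2, which differed by 0.64 there, was not one of them. Among 17 genes of the low-insulin and FOXO response, 1 was counted as higher against the 7, and 4 against SE 1 and 2, with medians of 0.44 and 0.46. Fbxo32, a ubiquitin ligase of muscle wasting, lay at 125, 124 and 146 CPM against 46.5 to 80.8 CPM (median 57.3). Irs2, the insulin receptor substrate, lay at 27.8, 25.1 and 26.3 CPM against 9.01 to 16.7 CPM (median 14.4), a difference of 0.95. Both lay above all of the 7.

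Lipid synthesis genes were lower. Of 21 fatty acid synthesis genes, 20 had a negative difference and 7 were counted as lower, with a median of -0.69. They were Thrsp, Scd2, Fasn, Acss2, Elovl3, Slc25a1 and Acaca. Fasn, fatty acid synthase, lay at 552, 440.4 and 453 CPM in the 3, at 1107 and 764 CPM in SE 1 and SE 2 and from 1401 to 1815 CPM over the SA libraries. The order was thus SA, then SE 1 and 2, then the 3, with no overlap between them, and the difference was -1.46 against the 7 and -0.94 against SE 1 and 2. Thrsp, a lipogenic cofactor, lay at 50.7, 26.7 and 56.1 CPM against 97.6 to 235 CPM (median 145). Scd2, a fatty acid desaturase, lay at 176, 124 and 188 CPM against 347 to 590.3 CPM (median 425) and differed by as much from SE 1 and 2, -1.50. Against SE 1 and 2 only Thrsp and Scd2 of the list were counted (median -0.44), and SE 1 and 2 lay below all SA libraries in Fasn.

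All 25 cholesterol synthesis and uptake genes had a negative difference, with a median of -0.56 (-0.59 against SE 1 and 2), and 2 were counted as lower. Sqle, squalene epoxidase, lay at 103, 106 and 87.2 CPM against 139 to 168 CPM (median 158), without overlap but at -0.64 short of 2-fold. Angptl8, a feeding-induced partner of the lipoprotein lipase inhibitors, lay at 0.0445, 0.0916 and 0.411 CPM against 1.05 to 20.7 CPM (median 4.97), the second largest of the lower genes named. A level of 1 CPM stands for at least 21.3 reads, so its reads in the 3 were few, and it ranged widely among the 7.

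**Figure D4:**
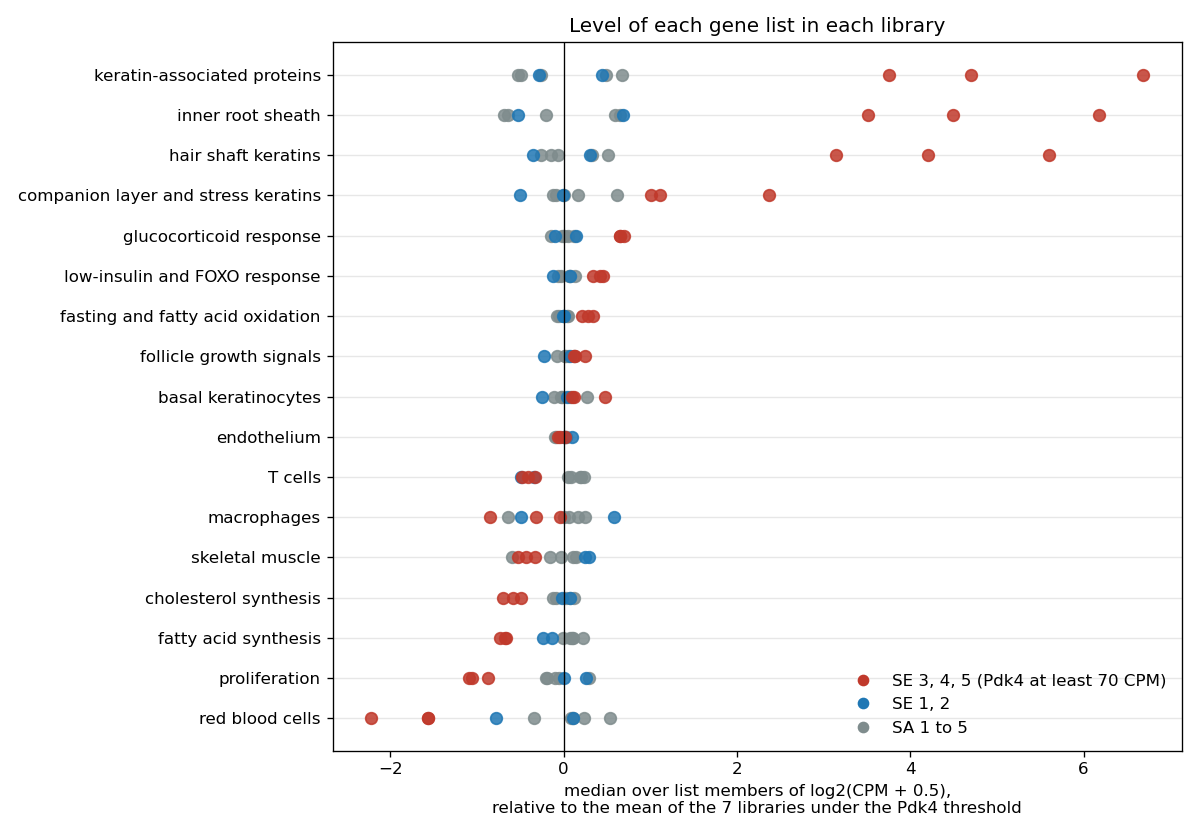
Each row is a gene list and each point a library, placed on the x axis by the median over the list's tested genes of log2(CPM + 0.5) relative to the mean of the 7 libraries under the Pdk4 threshold. The 3 red points lie to the right of all others in the 3 hair lists and the companion, glucocorticoid, FOXO and fasting lists, and to the left of all others in the lists of cholesterol synthesis, fatty acid synthesis, proliferation and red blood cells.

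Red cell genes were lower, with 5 of 7 counted as lower and 1 as higher and a median of -1.79 (-1.60 against SE 1 and 2). Hba-a1, an alpha globin, lay at 8.46, 13.2 and 14.3 CPM against 31.7 to 75.2 CPM (median 55.96), and Alas2, the haem enzyme of red cell precursors, at 4.45, 6.27 and 7.27 CPM against 8.17 to 22.1 CPM (median 19.9). The summed level of the list was 88.1 to 149 CPM in the 3 and 247 to 582 in the 7. Slc4a1, the red cell anion exchanger, was the gene on the other side, at 5.79, 5.81 and 17.4 CPM against 0.791 to 3.52 CPM (median 2.18). Globin copies are near-identical, so the level of each copy is uncertain. The part that blood in the punch had in any other result was not tested.

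Among the largest lower differences, Actc1, the cardiac actin that immature muscle also makes, lay at 5.56, 6.82 and 5.16 CPM against 29.5 to 115 CPM (median 64.5), a difference of -3.46. Myl6b, a myosin light chain, differed by -2.15. Adult skeletal muscle genes did not reach that size, with none of 23 counted against the 7 and 3 counted as lower against SE 1 and 2, medians of -0.45 and -0.81, and summed levels of 20549.8 to 23569.9 CPM in the 3 and 20030.6 to 37437 in the 7. Complement C3 lay at 69.5, 32.3 and 65.2 CPM against 99.7 to 256 CPM (median 208). Cyp2e1, an oxidising enzyme of fat and liver, differed by -1.74.

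Other cells of the punch showed fewer differences of that size. Among 16 adipocyte genes 1 was counted as lower, Retn, with a median of -0.27, and among 23 fibroblast and collagen genes 1 was lower, Timp1, with a median of -0.20. That median was -0.04 without SE 4 and -0.11 without SE 1. Endothelium (14 genes, median -0.06), sebaceous gland (10 genes, -0.01), basal keratinocytes (11 genes, 0.26, or 0.14 without SE 4) and Schwann cells (10 genes, -0.30) had none counted against the 7. Of 25 terminal differentiation genes 2 were higher, Sprr1a and Rptn, which help build the cornified envelope, with a median of -0.13 that stood at 0.24 against SE 1 and 2. It was -0.02 without SA 1, -0.05 without SA 4, -0.07 without SE 4 and 0.01 without SE 5. Sprr1a lay at 735, 596 and 1073 CPM against 70.8 to 226 CPM (median 201), and SE 1 and SE 2 were its lowest libraries.

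Immune lists held 1 gene counted against the 7, Ighm among 4 B cell genes, which was lower at 35.4, 27.2 and 36.8 CPM against 42.1 to 98.8 CPM (median 74.4). No B cell gene, Ighm included, was counted against SE 1 and 2, where the list had a median of 0.16. The T cell list had a median of -0.55 against SA libraries and 0.07 against SE 1 and 2, and the neutrophil list one of -0.63 against SA and near 0 against SE 1 and 2. In SA comparisons 4 T cell genes and 1 neutrophil gene were counted as lower, and none of either list was counted against SE 1 and 2. The medians of both lists were thus below 0 against SA skin and close to 0 against the other SE skin. Macrophages (11 genes, -0.40), dendritic and Langerhans cells (9 genes, -0.34) and interferon response (14 genes, -0.56) were below 0 against both the 7 and SE 1 and 2, with none counted against the 7. Of these, 2 interferon genes and 1 macrophage gene were counted as lower against SE 1 and 2. In the interferon list 13 of 14 genes had a negative difference against the 7. Its level in SE 3, 4 and 5 was -0.48, -0.58 and -0.50, below all of the 7 (lowest -0.27). Without SE 4 the macrophage median was -0.17, and SE 3, at -0.04, lay inside the range of the 7 (-0.64 to 0.58). Immediate early genes, which rise within minutes of handling, had a median of 0.36 with none of 16 counted against the 7, and one of 0.46 with 2 counted as higher against SE 1 and 2. Against the 7, mast cells had a median of 0.09, mitochondrially encoded genes one of 0.03, and ribosomal protein genes and pseudogenes one of -0.26. Of 161 tested ribosomal protein genes and pseudogenes, 150 had a negative difference and none was counted. The level of that list in SE 3, 4 and 5 was -0.28, -0.15 and -0.38, below all of the 7 (lowest -0.12). Of 10 genes of amino acid and unfolded protein stress 1 was higher, Chac1, and of 11 imprinted growth genes none was counted.

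Another 4 genes were taken because they divided SA from SE skin in earlier results that included the 3, so their side is fixed by that choice. Nnat, an imprinted membrane protein, lay from 10.7 to 16.6 CPM in SA libraries, at 73.2 and 41.7 CPM in SE 1 and SE 2 and at 118, 62.4 and 91.7 CPM in the 3. Cd163l1, a marker of gamma-delta T cells, lay from 18.98 to 26.7 CPM in SA libraries, at 3.02 and 3.16 CPM in SE 1 and 2 and at 4.32, 3.16 and 6.63 CPM in the 3. Il1f9, an IL-1 family cytokine of keratinocytes, lay from 38.7 to 48.7, at 25.5 and 26.6 and at 25.1, 28.6 and 22.6 CPM. In Nnat, Cd163l1 and Il1f9 the libraries SE 3, 4 and 5 overlapped SE 1 and 2. Me1, malic enzyme, which supplies NADPH for fatty acid synthesis, lay at 208, 224 and 193 CPM in the 3 and at 247 and 263 CPM in SE 1 and 2, both below the SA libraries, which lay from 388 to 428, and there the 3 did not overlap SE 1 and 2.

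Of the genes counted, 50 of the 217 and 33 of the 131 belong to a list, 27 of the 50 to the hair lists. Among those in no list, Pinlyp had the largest difference of the higher genes named, at 167, 224 and 396 CPM against 3.02 to 8.11 CPM (median 5.41). The next 6 genes were chosen after their values were seen. Car6, a secreted carbonic anhydrase, lay at 88.2, 102 and 211 CPM against 3.65 to 5.34 CPM (median 4.60), and Mmp11, a matrix protease of remodelling stroma, at 228, 153 and 247 CPM against 6.15 to 33.5 CPM (median 16.7). Apoe, the lipid carrier, lay at 3873, 4629 and 4513 CPM against 1384 to 2044 CPM (median 1733), and Abca1, the cholesterol exporter, at 364, 309.9 and 423 CPM against 143 to 215 CPM (median 163). Pck1, the first committed enzyme of gluconeogenesis and of glycerol synthesis in fat, lay at 75.2, 47.6 and 85.1 CPM against 11.7 to 42.02 CPM (median 20.1). Gpd1, glycerol-3-phosphate dehydrogenase, lay lower, at 116, 69.8 and 105 CPM against 186 to 309 CPM (median 205). In none of these 6 genes did the 3 overlap the 7, which the counting rule already requires.

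The order of the 7 libraries under the threshold was not used to choose the 3, so Pdk4 could be related to 10 genes within them. By an exact two-sided permutation test of every pairing of the libraries (n = 7), 0 of the 10 passed after Benjamini-Hochberg adjustment, and 1, Fkbp5, had an unadjusted p under 0.05. Fkbp5 had a Pearson r of 0.79 (exact permutation p = 0.0222, adjusted p = 0.222) and a Spearman rho of 0.86 (exact permutation p = 0.0238, adjusted p = 0.238). Fasn had an r of -0.75 (exact permutation p = 0.0611, adjusted p = 0.306) and Krt27 one of 0.41 (exact permutation p = 0.375, adjusted p = 0.551). Without SE 2 and SA 1, the 2 farthest from the median of Pdk4, these r values were 0.87, -0.85 and 0.59. The remaining 7 genes had r between -0.30 (Krt35) and 0.63 (Tyrp1). Without SE 2 and SA 1, r grew in size in Krt35 (-0.65), Angptl4 (0.80), Sqle (-0.34) and Per1 (-0.38). It fell in Tyrp1 (0.14) and Tsc22d3 (0.26), and in Top2a it changed sign, from 0.52 to -0.39. SE 1 and 2 had the highest Pdk4 of the 7, so the colonising species runs along the same order. The relation within the 5 SA libraries alone was not computed.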

How the data were processed

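RNA of whole back skin was sequenced in 10 libraries. The deposited values are whole-number read counts per Ensembl gene on GRCm38. Per the submitters' processing notes, the authors used STAR 2.4.2a, HTSeq 0.6.1p1 and SAMtools. The sources used here do not name the annotation release, the counting mode or the use of strand, so an overlapping pair of genes on opposite strands may share reads. Sample titles gave the groups and replicate numbers. Of 46078 genes, 16909 passed the default filter of edgeR 4.0.16 in R 4.3.3 (minimum count 10), and 5 rows that name no gene were left out. Counts were scaled with TMM. Symbols were matched for 45143 IDs, and coordinates are those of GENCODE on GRCm38.

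The libraries, the threshold and the gene lists were chosen with earlier results of these data known, and the contrast was not tested. Named genes were the 15 largest differences per direction counted against both the 7 and SE 1 and 2 with a mean of at least 5 CPM, up to 4 members per list with a mean of at least 1 CPM, and a fixed set. Alas2, Gata3 and Shh were chosen after their values were seen. Some genes the rule took are not named, and they stayed in every list and count. SE 3, 4 and 5 differed pairwise by a chi-square of 14.9 to 22.3 per degree of freedom, more than counting noise gives, so each was kept as a library of its own. Counting was tested on simulated data. Alternatives were the size factors of DESeq2 1.42.0, other pseudocounts, folds and filters, SA libraries only, and each library left out.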

Additional observations from a re-analysis of the deposited data

Results flagged for a closer look

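In 72 sets of 5 libraries (the level of each of 36 lists within the SA and within the SE libraries), 8 had 1 library far from the others of its group, where chance alone would give about 1 in 20. The sets reuse the same libraries and are not independent, so 8 of 72 against that rate does not measure an excess. Levels are list medians of log2(CPM + 0.5) relative to the mean of the 7 libraries. In 5 of the 8 the library was SA 1, which was highest in follicle stem cells at 0.28 (next 0.01) and lowest in fibroblasts and collagens at -0.57 (next 0.07), macrophages at -0.64 (next 0.00), dendritic and Langerhans cells at -0.34 (next 0.09) and mast cells at -0.46 (next 0.11). SA 2 was highest in Schwann cells at 0.36 (next -0.00). SE 2 was lowest in B cells at -0.50 (next -0.12), and SE 3 was highest in the Y-linked and Xist list at 3.60 (next -0.80). None of the 8 was in the sheath, shaft or keratin-associated lists or in a fuel, lipid synthesis or proliferation list. Where the SE libraries split into SE 1 and 2 and the 3, a search for 1 far library could hardly flag any. The lack of flags there is thus no sign that the SE libraries were alike in those lists. Their part in the results was not tested beyond leaving each library out.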

How the results depend on the processing

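Against the 7, a pseudocount of 2 CPM left 144 genes higher and 69 lower, a fold of 1.5 gave 666 and 486, and a fold of 4 gave 65 and 8. Against SE 1 and 2 the same settings gave 214 and 137, 1275 and 1029, and 76 and 4. With a mean of at least 5 CPM, 232 genes were higher than in SE 1 and 2. By construction, a larger fold, a larger pseudocount or a stricter filter counts fewer genes and a smaller fold more. Every other setting, 60 of 73 alternatives, stayed within 1.5 times the counts of 217, 131, 368 and 249 or, for the relations with Pdk4, at 0 genes. Leaving out 1 library at a time gave 175 to 288 genes higher and 121 to 150 lower than in the rest of the 7, and 307 to 457 higher and 239 to 369 lower than in SE 1 and 2. Over only the libraries with more Xist than Ddx3y, chosen after seeing the data, the counts were 279 and 141, and 432 and 288. Of 504 alternatives for list medians 41 moved by more than the spread between libraries. No named gene that was counted changed side, but some list medians did, among them terminal differentiation (0.24), T cells (0.07) and B cells (0.16) against SE 1 and 2. No paired analysis was possible because the 3 libraries and the others were not labelled groups with shared numbers and their contrast has no test. Whether uncolonised skin has the same split is not analysed here, and 3 libraries against 7, chosen by 1 gene, limit the precision of every difference.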
